A study of Mus musculus with 8 samples.

Results

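A list of 40 genes that hepatocytes are known for, among the 22520 protein-coding genes of the table, was examined in RNA-seq libraries of mouse liver endothelial cells (ECs). A gene was taken as a member where its symbol in the table equalled a listed symbol, and all 40 were found. The libraries came from 4 WT and 4 LRP1 eKO samples of C57BL/6 mice at postnatal day 14. LRP1 eKO mice were LRP1 f/f; Cdh5-CreER+/-, and their WT littermates were LRP1 f/f; Cdh5-CreER-/-, so both groups carried the floxed alleles and the inducible Cre was driven by the promoter of the endothelial cadherin gene Cdh5 in LRP1 eKO mice only. The labels call the samples liver microvesicular cells, and the methods of the study describe primary ECs captured on magnetic beads with an antibody against PECAM-1. The labels do not say that the libraries came from separate mice, so p-values measure only the spread between these samples, which may be technical.

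Hepatocytes are the parenchymal cells of the liver, and ECs line its sinusoids and vessels. Hepatocytes secrete most of the proteins of blood plasma, among them albumin, transferrin, apolipoproteins, the fibrinogen chains and many protease inhibitors. They also carry out the urea cycle, gluconeogenesis and the breakdown of amino acids and drugs. Their genes are switched on by a small group of transcription factors, among them the nuclear receptor HNF4A and members of the C/EBP family. Lrp1 encodes a large endocytic receptor that binds many ligands.

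All values are quantile-normalized signals as the authors deposited them, a scale on which every library has almost the same sorted values. Since it is not stated whether the signal is per length of the gene, levels are compared between libraries and not between genes. The comparison is made for 1 gene, 1 sum of listed genes or 1 ratio of genes at a time. The mean of a gene serves otherwise only as a minimum and to choose which genes to name. Lrp1 itself had signals of 61.6, 59.0, 56.2 and 85.1 for WT replicates 1 to 4 and 6.01, 2.16, 5.15 and 4.32 for LRP1 eKO replicates 1 to 4, so the targeted gene was at 6.74% of the WT mean and the groups did not overlap. Of 10 markers of ECs, 8 had a mean signal of at least 1, among them Pecam1, between 1.53 and 3.85 over the 8 libraries, Cdh5, between 1.26 and 4.99, and Esam, between 13.9 and 19.1. Markers of other cell types were present as well, since 6 of 9 stellate cell and fibroblast genes and 4 of 6 cholangiocyte genes had a mean of at least 1, among them the matrix protein gene Dcn, between 441 and 581, and the keratin gene Krt7, between 107 and 148. Other members of these 2 lists were low. Of the first, Lrat was at most 0.201, Reln at most 0.625 and Dpt between 0.316 and 1.51. Of the second, Epcam was at most 0.0523 and Sox9 between 0.565 and 1.02. The samples thus held some, but not all, of the listed markers of cell types that the label does not name. The depth of the libraries is unknown.

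Most of the hepatocyte genes had lower signals in LRP1 eKO libraries. The LRP1 eKO mean was below the WT mean in 37 of the 40 genes and above it in 3, the urea cycle enzymes Ass1 and Arg1 and the cytochrome Cyp2e1. In 28 genes every LRP1 eKO library was below every WT library, in 1 gene, Ass1, every LRP1 eKO library was above every WT library, and in 11 genes the groups overlapped. Of the 11391 genes whose signal reached 1 in 4 or more of the 8 libraries, 22.5% were lower without overlap and 20.0% were higher without overlap. Of 17959 genes above 0 in any library, 17.4% and 14.6% were. The test was limma on log2(signal + 1) with Benjamini-Hochberg adjustment over the 11391 genes, and fold changes on this scale understate the change of genes with low signals. Of the 40 genes, 21 entered it. Among those, 18 were lower at an adjusted p below 0.05, where 22.2% of the genes tested were lower, 1 was higher, where 19.0% were, and 2, Apoc1 and Arg1, passed in neither direction. A change of at least 2-fold on this scale beside the adjusted p was met by 16 of them, all lower, against 0.790% of the genes tested that were lower and 0.869% that were higher. Gc and Serpina1d entered through the WT libraries alone, since they had no LRP1 eKO library with a signal of 1 or more. The other 19 genes had mean signals between 0.0032 and 0.796 and were fitted without the filter, among 17959 genes of which 15.3% were lower and 12% were higher. Of these 19, 12 were lower and 7 were not called. In that fit 0.512% of the genes were lower and 0.507% higher by 2-fold as well, a threshold that genes with a WT mean below 1 cannot pass downwards, because 1 is added to the signal before the logarithm is taken. In bulk samples like these, fewer cells of a type and less RNA per cell cannot be told apart.

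**Figure D1:**
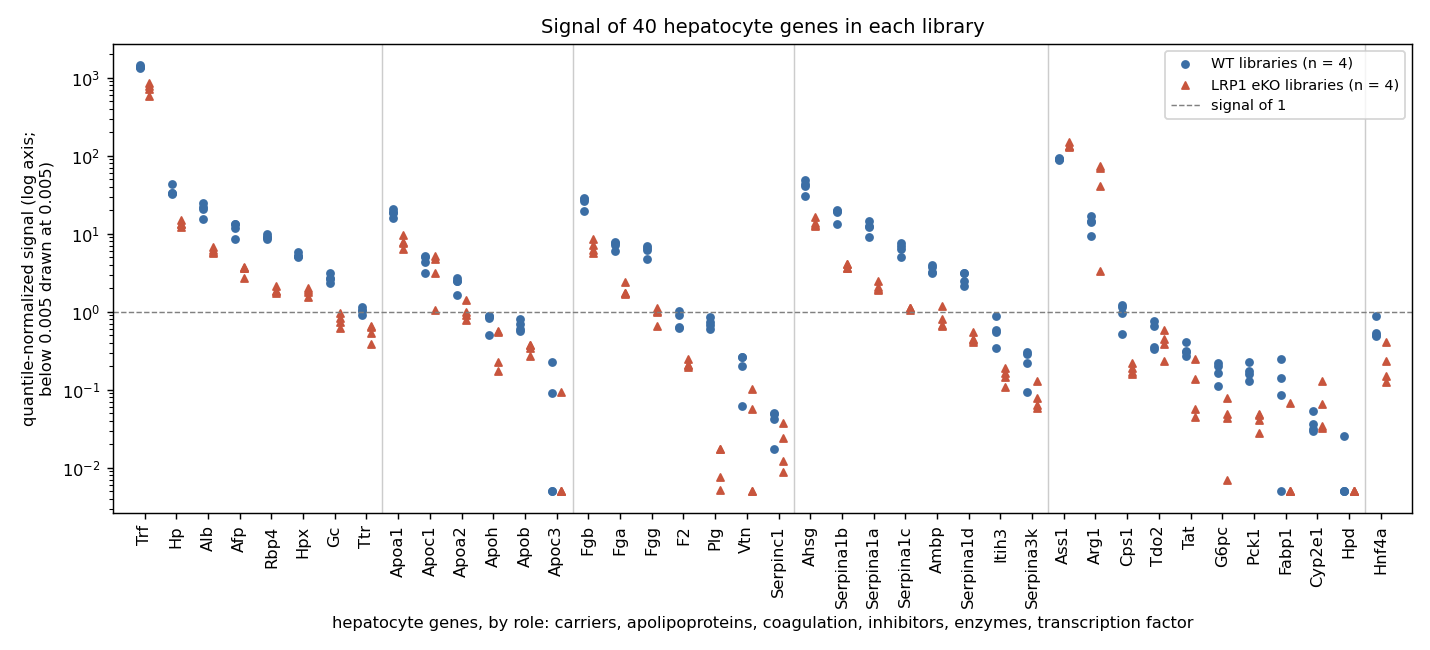
Quantile-normalized signal of each of the 40 hepatocyte genes, ordered by role, in the 4 WT and the 4 LRP1 eKO libraries, on a log axis with 1 point per library, values near 0 drawn at the lower edge and a dashed line at a signal of 1. In 28 genes all LRP1 eKO points lie below all WT points, in Ass1 they lie above, and in 11 genes the points of the groups overlap.

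Some markers of other cell types differed between the same libraries. Of the 11391 genes tested, 20.0% were higher and 22.5% were lower without overlap. A sum follows mainly its genes with the highest signals. The summed signal of 12 measured macrophage and Kupffer cell genes was 187, 204, 219 and 112 in WT replicates 1 to 4. It was 724, 52.4, 660.3 and 388 in LRP1 eKO replicates 1 to 4, lowest in LRP1 eKO replicate 2. All 12 means were higher in LRP1 eKO, but only 1 gene, Clec4f, at 0 in every WT library, was higher without overlap. The sum of 7 measured skeletal muscle genes was 32.1 to 54.4 among WT and 5.93 to 7.36 among LRP1 eKO libraries, with 7 of 7 means lower in LRP1 eKO and 6 of the 7 without overlap. The sum of 10 endothelial genes was 49.1 to 51.7 among WT and 58.1 to 81.8 among LRP1 eKO libraries. Of those 10, 2, Eng and Esam, were higher in every LRP1 eKO library than in every WT library. That is near the share of 20.0% over the genes tested, and the other 8 overlapped. For 9 stellate cell and fibroblast genes the sums overlapped, at 1301 to 1423 and 1142 to 1385. Of the 9, 2, Dcn and Lum, were lower in every LRP1 eKO library, near the share of 22.5% over the genes tested. For 6 cholangiocyte genes the sums overlapped as well, at 309 to 364 and 240.2 to 703. Most of their spread came from Spp1, with 123 to 188 among WT and 522, 91.6, 547 and 351 in LRP1 eKO replicates 1 to 4. Of the 6, 2, Krt7 and Tspan8, were lower and 1, Sox9, was higher without overlap. The 8 sinusoidal endothelial genes summed to 7.55 to 10.9 among WT and 8.09 to 29.1 among LRP1 eKO libraries. All 8 means were higher in LRP1 eKO, but only 1 gene, Oit3, was higher without overlap. The sum of 7 lymphocyte genes, 3 of them listed at 0 in every library, was at most 0.191 in any library. That of 7 neutrophil genes was at most 3.62. That of 5 measured erythroid genes was between 14.6 and 46.2, of which Alas2 gave 14.6 to 29.1. Hba-a1 and Hba-a2 were above 0 in WT replicate 2 alone. The part of any of these in the results of the hepatocyte genes was not tested.

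The 8 plasma carrier proteins were all lower in LRP1 eKO libraries, without overlap, 7 of them in the test over the filtered genes and Ttr in the fit without the filter. The most familiar is albumin, the main protein of plasma and a carrier of fatty acids and hormones, encoded by Alb at chr5:90460897-90476602 on the plus strand of GRCm38. Alb had signals of 24.7, 22.1, 20.6 and 15.7 for WT replicates 1 to 4 and 6.83, 5.85, 6.21 and 5.7 for LRP1 eKO replicates 1 to 4. The lowest WT library, replicate 4, was still higher than any LRP1 eKO library. The mean fell from 20.8 ± 3.77 to 6.15 ± 0.505 (mean ± SD, n = 4 each), to 29.6% of WT (log2 fold change -1.59, standard error 0.12, limma adjusted p = 8.6e-06). Afp, the fetal counterpart of albumin, lies next to it at chr5:90490737-90508907. Its signals were 13.2, 13.3, 11.96 and 8.54 in the WT libraries and 3.6, 3.77, 2.71 and 3.64 in the LRP1 eKO libraries, again lowest among WT in replicate 4. The mean fell from 11.8 ± 2.23 to 3.43 ± 0.486 (mean ± SD, n = 4 each), to 29.2% of WT (log2 fold change -1.51, standard error 0.13, limma adjusted p = 2.6e-05), a ratio close to that of Alb.

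Trf, which encodes the iron carrier transferrin, had signals of 1358, 1369.5, 1369.5 and 1451 in the WT libraries and 779, 581, 862 and 711 in the LRP1 eKO libraries. All WT libraries lay above all LRP1 eKO libraries, and here WT replicate 4 was the highest. The mean fell from 1387 ± 42.9 to 733 ± 119 (mean ± SD, n = 4 each), a smaller change than that of Alb, to 52.9% of WT (log2 fold change -0.93, standard error 0.10, limma adjusted p = 1.1e-04). Rbp4, the carrier of retinol, had 9.85, 8.63, 9.14 and 9.14 in the WT libraries and 2.15, 1.75, 1.86 and 1.86 in the LRP1 eKO libraries. The groups were wide apart and the spread within each was small, and the mean fell to 20.7% of WT (log2 fold change -1.81, standard error 0.064, limma adjusted p = 7.5e-08). Ttr, which encodes transthyretin, the partner of the retinol carrier and a carrier of thyroid hormone, was near the filter, with 1.05, 0.909, 1.03 and 1.16 in the WT libraries and 0.387, 0.541, 0.654 and 0.639 in the LRP1 eKO libraries. It fell to 53.6% of WT in the fit without the filter, with a log2 fold change of -0.39 (adjusted p = 0.0038 by limma).

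Gc, the vitamin D binding protein, had signals of 2.76, 2.67, 3.12 and 2.35 in the WT libraries and 0.841, 0.971, 0.743 and 0.624 in the LRP1 eKO libraries, and fell to 29.2% of WT (log2 fold change -1.05, standard error 0.085, limma adjusted p = 1.5e-05). Gc lies on the same chromosome as Alb and Afp, at chr5:89417522-89457898. Haptoglobin and hemopexin capture free hemoglobin and free heme. Haptoglobin, encoded by Hp, had 32.3, 33.1, 33.8 and 43.0 in the WT libraries and 14.9, 12.1, 13.4 and 13.3 in the LRP1 eKO libraries, with the highest value again in WT replicate 4, and fell to 37.8% of WT (log2 fold change -1.33, standard error 0.093, limma adjusted p = 6.0e-06). Hemopexin, encoded by Hpx, had 5.15, 5.01, 5.82 and 5.19 in the WT libraries and 1.82, 1.93, 1.55 and 2.02 in the LRP1 eKO libraries and fell to 34.6% of WT (log2 fold change -1.15, standard error 0.072, limma adjusted p = 3.0e-06). Neither gene had overlapping groups.

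The 6 apolipoproteins, the protein parts of plasma lipoproteins, were less alike. Apoa1 and Apoa2 are the main proteins of high density lipoprotein. Apoa1 had signals of 20.7, 19.3, 18.7 and 15.8 in the WT libraries and 9.62, 6.35, 7.69 and 7.92 in the LRP1 eKO libraries, with no overlap, and fell from 18.6 ± 2.04 to 7.9 ± 1.34 (mean ± SD, n = 4 each), to 42.4% of WT (log2 fold change -1.15, standard error 0.11, limma adjusted p = 5.1e-05). Apoa2 had 1.66, 2.69, 2.48 and 2.47 in the WT libraries and 0.899, 1.43, 0.779 and 0.998 in the LRP1 eKO libraries. Its groups did not overlap but came close, and it fell to 44.1% of WT (log2 fold change -0.71, standard error 0.12, limma adjusted p = 0.0016), less than 2-fold on the log2(signal + 1) scale. Apob, the structural protein of very low density and low density lipoprotein, had low signals of 0.819, 0.697, 0.575 and 0.610 in the WT libraries and 0.381, 0.341, 0.271 and 0.374 in the LRP1 eKO libraries, and in the fit without the filter its log2 fold change was -0.32 (adjusted p = 0.0029 by limma), lower at 50.6% of WT.

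Apoc1, a small apolipoprotein made by hepatocytes and by macrophages, stood apart. Its signals were 5.0, 5.27, 3.17 and 4.35 in the WT libraries and 4.74, 1.04, 5.18 and 3.18 in the LRP1 eKO libraries. The groups overlapped, LRP1 eKO replicate 2 was the lowest of all libraries, and the other LRP1 eKO libraries lay within or next to the WT range, so that no difference passed the test (log2 fold change -0.37, standard error 0.31, limma adjusted p = 0.36). In the LRP1 eKO libraries, replicate 2 was lowest and replicates 1 and 3 were highest both in Apoc1 and in the summed macrophage genes. Among WT libraries the orders differed, since replicate 3 had the lowest Apoc1 and the highest macrophage sum. The part of the macrophage genes in the values of Apoc1 was not tested. Apoc3, an inhibitor of lipoprotein lipase, and Apoh, which binds phospholipids, were not called in the fit without the filter. Apoh had 0.499, 0.825, 0.890 and 0.876 in the WT libraries and 0.570, 0.556, 0.176 and 0.227 in the LRP1 eKO libraries, and its log2 fold change was -0.36 (adjusted p = 0.056 by limma). Apoc3 had a mean of 0.0516 over all libraries and was listed at 0 in some of them.

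Among the 7 coagulation genes, the 3 fibrinogen chains fell together. Fibrinogen, the soluble protein that thrombin turns into the fibrin of a clot, is built of an alpha, a beta and a gamma chain, encoded by Fga, Fgb and Fgg, which are neighbours on chromosome 3 of GRCm38, at chr3:83007724-83015049 for Fgg, chr3:83026076-83033627 for Fga and chr3:83040141-83049863 for Fgb. Fga had signals of 7.6, 7.27, 7.92 and 5.98 in the WT libraries and 2.41, 1.76, 1.68 and 1.73 in the LRP1 eKO libraries. Fgb had 28.4, 28.0, 26.3 and 19.7 in the WT libraries and 8.5, 5.71, 7.16 and 6.18 in the LRP1 eKO libraries. Fgg had 7.07, 6.5, 6.3 and 4.72 in the WT libraries and 1.13, 0.657, 0.985 and 1.02 in the LRP1 eKO libraries. In each of these the lowest WT library, replicate 4, was higher than the highest LRP1 eKO library, replicate 1. Fga fell to 26.4% of WT (log2 fold change -1.50, standard error 0.10, limma adjusted p = 4.8e-06). Fgb fell to 26.9% (log2 fold change -1.75, standard error 0.13, limma adjusted p = 9.7e-06). Fgg fell further, to 15.4% (log2 fold change -1.87, standard error 0.12, limma adjusted p = 2.8e-06), the lowest share of WT among the genes with a mean signal of at least 1.

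The other 4 coagulation genes had mean signals below 1. Plg, the precursor of the clot-dissolving protease plasmin, had 0.871, 0.732, 0.686 and 0.601 in the WT libraries and 0.0175, 0.00517, 0.0176 and 0.00753 in the LRP1 eKO libraries. It was near 0 in every LRP1 eKO library and at 1.66% of the WT mean, with a log2 fold change in the fit without the filter of -0.77 (adjusted p = 2.3e-05 by limma). The counting error of signals this low is unknown. F2, which encodes prothrombin, had 0.915, 0.639, 1.01 and 0.617 in the WT libraries and 0.209, 0.249, 0.199 and 0.208 in the LRP1 eKO libraries, and fell to 27.2% of WT, with a log2 fold change of -0.56 (adjusted p = 0.0013 by limma). Vtn, which encodes the adhesive plasma protein vitronectin, had 0.262, 0.261, 0.204 and 0.0622 in the WT libraries and 0.103, 0, 0 and 0.0560 in the LRP1 eKO libraries. The groups overlapped, and its log2 fold change was -0.20 (adjusted p = 0.040 by limma). Serpinc1, the thrombin inhibitor antithrombin, had a mean signal of 0.0303 and was not called, with a log2 fold change of -0.03 (adjusted p = 0.21 by limma).

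**Figure D2:**
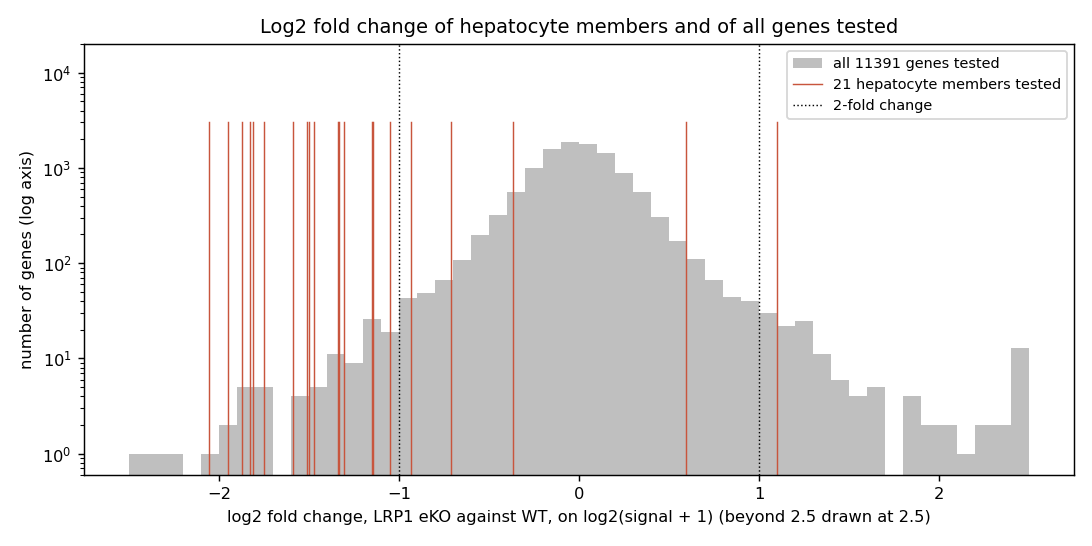
Histogram of the log2 fold change (LRP1 eKO against WT, on log2(signal + 1)) of all 11391 genes tested, with the number of genes on a log axis, 1 vertical line for each of the 21 hepatocyte genes tested and dotted lines at a 2-fold change. The 18 genes called lower lie between -2.06 and -0.71, Apoc1 lies at -0.37, Ass1 at 0.59 and Arg1, which was not called, at 1.10.

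All 8 protease inhibitors and related plasma proteins were called lower, 6 in the test over the filtered genes and 2, Serpina3k and Itih3, in the fit without the filter. In the mouse, alpha-1-antitrypsin, which protects tissue from neutrophil elastase, is encoded by several near-identical copies on chromosome 12 of GRCm38, among them Serpina1a at chr12:103853589-103863562, Serpina1b at chr12:103728156-103830373, Serpina1c at chr12:103894926-103904887 and Serpina1d at chr12:103763594-103773592, all on the minus strand. As annotated, the span of Serpina1b includes Serpina1d. Of the stretches of 50 bases in their annotated transcripts, 51.4% in Serpina1a, 28.2% in Serpina1b, 73.3% in Serpina1c and 48.0% in Serpina1d also occur in another copy. How reads were divided among the copies is not stated, so the 4 values are not independent and the level of each copy is uncertain. Their promoters are also alike, and are shown because these genes fell further than Alb in the comparison of ratios given later. Each line gives 110 bases before the RefSeq start of the gene on GRCm38.p6, 5′ to 3′ on the strand of the gene, and capitals mark the longest run of letters, 55 bases, that all 4 copies share.
Serpina1a, chr12:103863620-103863729, minus strand: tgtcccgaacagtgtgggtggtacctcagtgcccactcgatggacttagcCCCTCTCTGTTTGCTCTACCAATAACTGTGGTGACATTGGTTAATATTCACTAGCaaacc
Serpina1b, chr12:103738190-103738299, minus strand: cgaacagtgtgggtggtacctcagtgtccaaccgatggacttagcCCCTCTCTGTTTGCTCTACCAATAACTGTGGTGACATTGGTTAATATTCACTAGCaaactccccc
Serpina1c, chr12:103904951-103905060, minus strand: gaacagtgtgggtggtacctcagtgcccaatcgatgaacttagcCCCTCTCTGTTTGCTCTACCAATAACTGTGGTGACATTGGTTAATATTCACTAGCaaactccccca
Serpina1d, chr12:103773634-103773743, minus strand: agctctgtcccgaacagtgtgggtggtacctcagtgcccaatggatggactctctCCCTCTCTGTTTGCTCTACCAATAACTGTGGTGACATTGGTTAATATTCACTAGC

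The same 110 bases are shown for Alb and for Afp, which kept its ratio to Alb, and here capitals mark TTNNGCAA or its reverse complement TTGCNNAA, letters of the motif that C/EBP proteins bind.
Alb, chr5:90460760-90460869, plus strand: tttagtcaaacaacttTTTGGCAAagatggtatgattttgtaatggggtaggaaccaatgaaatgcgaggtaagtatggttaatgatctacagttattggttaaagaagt
Afp, chr5:90490604-90490713, plus strand: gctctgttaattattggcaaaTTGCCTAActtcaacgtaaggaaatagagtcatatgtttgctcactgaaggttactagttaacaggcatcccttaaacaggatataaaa

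Over the 250 bases before the start and on both strands, these letters were found in 12 of the 31 members with a promoter in the RefSeq table (38.7%) and in 10.8% of all 27025 genes. They were in 11 of the 23 of these members that were lower without overlap and in 1 of the other 8. Of those 8, all but Ass1 had a mean signal below 1, so the split is partly by signal level. The part of the motif in the results was not tested. A match is a run of letters, and binding was not measured. Arg1, Apoc3, Plg, Trf, Apoc1, Serpina3k, Cps1, Ttr and Hp had no entry in the table.

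The copies of alpha-1-antitrypsin fell by similar amounts. Serpina1a had signals of 14.6, 12.5, 12.4 and 9.0 in the WT libraries and 2.52, 1.91, 2.11 and 1.96 in the LRP1 eKO libraries. Serpina1b had 20.5, 19.5, 18.8 and 13.3 in the WT libraries and 4.07, 3.68, 4.11 and 3.63 in the LRP1 eKO libraries. The LRP1 eKO libraries were close to each other in both, while WT replicate 4 was below the other WT libraries. Serpina1c had 7.69, 7.08, 6.37 and 5.11 in the WT libraries and 1.14, 1.07, 1.11 and 1.12 in the LRP1 eKO libraries. Serpina1d had 3.13, 3.13, 2.5 and 2.16 in the WT libraries and 0.453, 0.406, 0.434 and 0.560 in the LRP1 eKO libraries. None of the 4 had overlapping groups. Serpina1a fell to 17.5% of WT (log2 fold change -2.06, standard error 0.12, limma adjusted p = 2.5e-06), Serpina1b to 21.5% (log2 fold change -1.95, standard error 0.12, limma adjusted p = 2.2e-06), Serpina1c to 16.9% (log2 fold change -1.83, standard error 0.10, limma adjusted p = 1.3e-06) and Serpina1d to 17.0% (log2 fold change -1.34, standard error 0.10, limma adjusted p = 6.6e-06). The log2 fold change of Serpina1d is nearer 0 because its signal is low beside the 1 that was added.

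Ahsg, which encodes fetuin-A, a plasma protein that keeps calcium phosphate in solution, had 48.6, 43.9, 41.6 and 30.4 in the WT libraries and 16.4, 12.7, 13.8 and 13.2 in the LRP1 eKO libraries. WT replicate 4 was again the lowest WT library and stood above all LRP1 eKO libraries. The mean fell from 41.1 ± 7.73 to 14.0 ± 1.66 (mean ± SD, n = 4 each), to 34.1% of WT (log2 fold change -1.47, standard error 0.13, limma adjusted p = 2.8e-05). Ambp, the precursor of alpha-1-microglobulin and of the protease inhibitor bikunin, had 3.94, 3.81, 3.23 and 3.17 in the WT libraries and 0.667, 1.2, 0.820 and 0.686 in the LRP1 eKO libraries, without overlap, and fell to 23.8% of WT (log2 fold change -1.30, standard error 0.10, limma adjusted p = 1.2e-05). Itih3, a heavy chain of the inter-alpha-trypsin inhibitor to which bikunin is joined, had 0.559, 0.584, 0.874 and 0.348 in the WT libraries and 0.163, 0.109, 0.145 and 0.191 in the LRP1 eKO libraries, with a log2 fold change of -0.46 (adjusted p = 0.0071 by limma) in the fit without the filter. Serpina3k, the mouse relative of kallistatin, had 0.289, 0.305, 0.223 and 0.0937 in the WT libraries and 0.131, 0.0649, 0.0579 and 0.0796 in the LRP1 eKO libraries and a log2 fold change of -0.18 (adjusted p = 0.046 by limma). Its groups overlapped, and those of Itih3 did not overlap.

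The 10 metabolic enzymes and binding proteins were mostly close to 0, and only Ass1 and Arg1 had a mean signal of at least 1. Both belong to the urea cycle. Both are also made outside hepatocytes, Ass1 in ECs for the recycling of citrulline to arginine and Arg1 in macrophages. The cells behind the signal of these and of all other members, the genes called lower such as Trf included, were not identified. Ass1, which encodes argininosuccinate synthase at chr2:31470207-31520672, had signals of 88.2, 91.0, 91.3 and 93.7 in the WT libraries and 135, 152, 131 and 135 in the LRP1 eKO libraries. Every LRP1 eKO library lay above every WT library. The mean rose from 91.0 ± 2.23 to 138 ± 9.3 (mean ± SD, n = 4 each), to 152% of WT (log2 fold change 0.59, standard error 0.051, limma adjusted p = 2.4e-05). Cps1, the first enzyme of the same cycle, went the other way, with 1.21, 1.16, 0.974 and 0.527 in the WT libraries and 0.220, 0.158, 0.190 and 0.168 in the LRP1 eKO libraries. It was without overlap and fell to 19.0% of WT, with a log2 fold change of -0.72 (adjusted p = 0.0025 by limma) in the fit without the filter.

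Arg1, which encodes arginase, the last enzyme of the cycle, differed widely among the LRP1 eKO libraries. Its signals were 14.3, 14.6, 16.7 and 9.49 for WT replicates 1 to 4 and 73.5, 3.32, 69.3 and 40.5 for LRP1 eKO replicates 1 to 4. In 3 LRP1 eKO libraries it was above every WT library, and in LRP1 eKO replicate 2 it was below every WT library. The means were 13.8 ± 3.06 in WT and 46.7 ± 32.4 in LRP1 eKO libraries (mean ± SD, n = 4 each), and the difference did not pass the test (log2 fold change 1.10, standard error 0.77, limma adjusted p = 0.27, and exact two-sided permutation test p = 0.257). Without LRP1 eKO replicate 2 the log2 fold change was 2.05 with a limma adjusted p of 1.8e-04. The macrophage and Kupffer cell genes summed to 724, 52.4, 660.3 and 388 in LRP1 eKO replicates 1 to 4, the same order as Arg1, and in WT libraries both were lowest in replicate 4 and highest in replicate 3. Lrp1 had this order among the LRP1 eKO libraries as well, at 6.01, 2.16, 5.15 and 4.32 in replicates 1 to 4, but not among WT libraries. The part of the macrophage genes in the values of Arg1 was not tested.

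**Figure D3:**
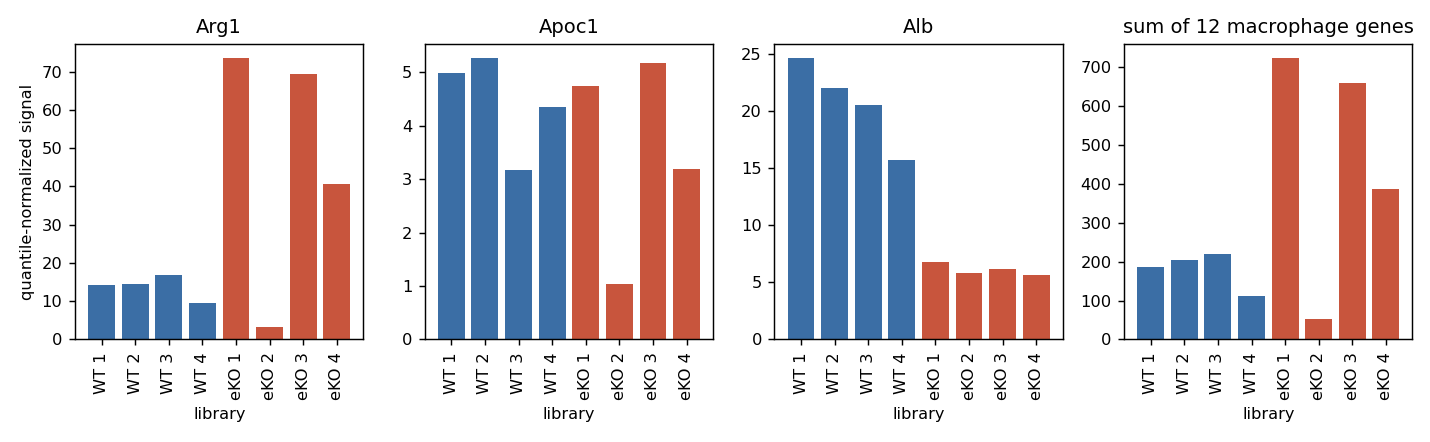
Quantile-normalized signal of Arg1, Apoc1 and Alb and the summed signal of 12 macrophage and Kupffer cell genes in each of the 8 libraries, with bars starting at 0. LRP1 eKO replicate 2 has the lowest Arg1, Apoc1 and macrophage values of all libraries, and its Alb lies with the other LRP1 eKO libraries.

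The other enzymes had mean signals below 1. Pck1 and G6pc, which encode enzymes of gluconeogenesis, had 0.159, 0.131, 0.227 and 0.173 in the WT libraries and 0.0471, 0.0281, 0.0413 and 0.0490 in the LRP1 eKO libraries for Pck1, and 0.166, 0.222, 0.200 and 0.114 in the WT libraries and 0.0796, 0.00706, 0.0441 and 0.0492 in the LRP1 eKO libraries for G6pc. Both were lower, at 24.0% and 25.6% of WT, with log2 fold changes of -0.17 (adjusted p = 0.0017 by limma) and -0.17 (adjusted p = 0.0070 by limma) in the fit without the filter. Tat, which encodes the enzyme that starts the breakdown of tyrosine, had 0.269, 0.405, 0.319 and 0.310 in the WT libraries and 0.0571, 0.136, 0.0451 and 0.248 in the LRP1 eKO libraries, at 37.3% of WT, and a log2 fold change of -0.24 (adjusted p = 0.018 by limma). Tdo2, which starts the breakdown of tryptophan, Hpd, of the tyrosine pathway, Fabp1, the fatty acid binding protein of liver, and Cyp2e1, which oxidizes ethanol, were not called. Their mean signals over all libraries were 0.473 for Tdo2, 0.00320 for Hpd, 0.0680 for Fabp1 and 0.0515 for Cyp2e1. Hpd and Fabp1 were listed at 0 in some libraries.

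Hnf4a, which encodes the nuclear receptor that many hepatocyte genes depend on, was the one transcription factor of the list. Its signals were 0.539, 0.886, 0.503 and 0.491 in the WT libraries and 0.236, 0.150, 0.417 and 0.128 in the LRP1 eKO libraries. The groups did not overlap, and WT replicate 2 stood above the other WT libraries. The mean was 0.605 ± 0.189 among WT and 0.233 ± 0.132 in LRP1 eKO libraries (mean ± SD, n = 4 each), 38.4% of WT, with a log2 fold change of -0.38 (adjusted p = 0.023 by limma) in the fit without the filter. This call was lost under some of the alternatives tried, as were those of Serpina3k, Tat and Vtn.

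The ratios were not uniform over the list. Among the 21 genes with a mean signal of at least 1, the LRP1 eKO mean as a share of the WT mean had a median of 29.2% and ran from 15.4% in Fgg to 338% in Arg1. Their median log2 fold change was -1.34, against -0.0095 over all genes tested, and its SD was 0.80 against 0.35. By library, the median of the 21 genes relative to the WT mean was 111%, 106%, 101% and 83.1% in WT replicates 1 to 4 and 33.2%, 28.2%, 27.9% and 27.4% in LRP1 eKO replicates 1 to 4. All LRP1 eKO libraries thus had a similar median. The SD of the log2 ratio over the genes was between 0.098 and 0.23 in WT libraries and 1.19, 0.83, 1.22 and 1.06 in the LRP1 eKO libraries. Without Ass1, Arg1 and Apoc1, the 3 genes not called lower, which were set aside after their values were seen, the medians were 31.9%, 29.5%, 25.3% and 24.1% and the SD was between 0.52 and 0.63 in LRP1 eKO libraries. Genes are not replicates, and these spreads are descriptions.

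**Figure D4:**
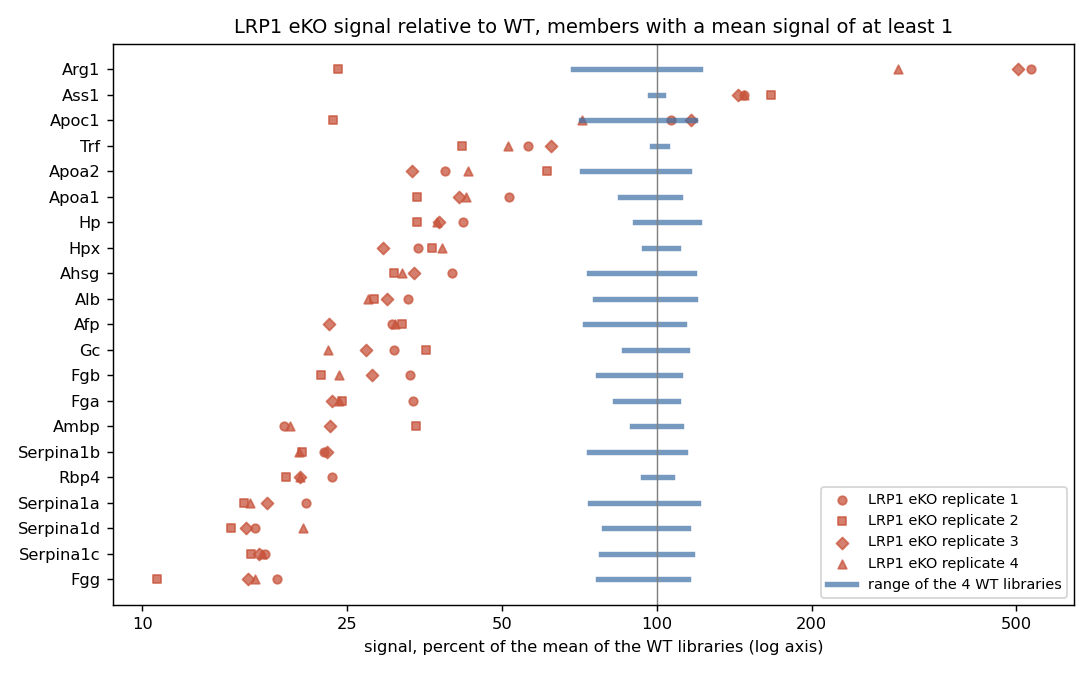
Signal in each LRP1 eKO library as a percent of the gene's WT mean, on a log axis, for the 21 genes with a mean signal of at least 1, with a symbol for each replicate and a bar for the range of the 4 WT libraries. Fgg and Serpina1c have the lowest means, Trf has the highest mean of the genes called lower, Ass1 lies above 100% in all 4 libraries, and replicate 2 is far below the others in Arg1 and Apoc1.

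To set the genes against each other within a library, each signal was divided by that of Alb. Of the 20 other genes with a mean signal of at least 1, 6 had a lower ratio to Alb in every LRP1 eKO library than in every WT library, 4 had a higher one and 10 overlapped. Over 11384 genes with a mean of at least 1, 0.114% were lower by this measure and 97.9% were higher. Since Alb itself fell, a higher ratio was the usual case in the table and a lower ratio was rare. The minimum is a mean over all libraries. Fgg, Serpina1d, Gc and Ambp met it through their WT values, with LRP1 eKO means of 0.946, 0.463, 0.795 and 0.844.

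The 6 genes lower relative to Alb were Fgg, Rbp4 and the 4 Serpina1 copies, whose values are not independent. The ratio of Serpina1c to Alb was 0.312, 0.321, 0.309 and 0.325 in WT replicates 1 to 4 and 0.166, 0.183, 0.178 and 0.197 in LRP1 eKO replicates 1 to 4. Within WT this ratio hardly moved, replicate 4 included, and in LRP1 eKO libraries it was at 57.2% of the WT mean. The ratios of Serpina1a, Serpina1b and Serpina1d were at 59.2%, 72.6% and 57.6%. Fgg had a ratio to Alb of 0.287, 0.295, 0.306 and 0.301 among WT and 0.165, 0.112, 0.159 and 0.178 among LRP1 eKO libraries, at 51.7% of WT. Its neighbour Fga, at 87.6%, and Fgb, at 90.0%, overlapped between the groups. Rbp4 was at 68.2%, with a ratio in WT replicate 4 of 0.582, above those of WT replicates 1 to 3, which lay between 0.391 and 0.444.

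The 4 genes higher relative to Alb were Trf, Apoa1, Ahsg and Ass1. The ratio of Ahsg to Alb was 1.97, 1.99, 2.02 and 1.93 among WT and 2.4, 2.17, 2.23 and 2.31 among LRP1 eKO libraries, a small but complete separation at 115% of WT. Apoa1 was at 141% and Trf at 173%. The ratio of Trf to Alb was 55.0, 62.1, 66.5 and 92.3 among WT and 114, 99.3, 139 and 125 among LRP1 eKO libraries, so WT replicate 4 lay between the other WT libraries and the LRP1 eKO libraries. The ratio of Ass1 was 3.57, 4.12, 4.43 and 5.96 among WT and 19.7, 25.9, 21.1 and 23.7 among LRP1 eKO libraries. Among the genes that overlapped, Afp at 99.3%, Gc at 97.1% and Fgb at 90.0% had a mean ratio nearest to that of WT. Hp overlapped only through WT replicate 4, with ratios of 1.31, 1.5, 1.64 and 2.74 among WT and 2.18, 2.08, 2.15 and 2.33 among LRP1 eKO libraries.

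**Figure D5:**
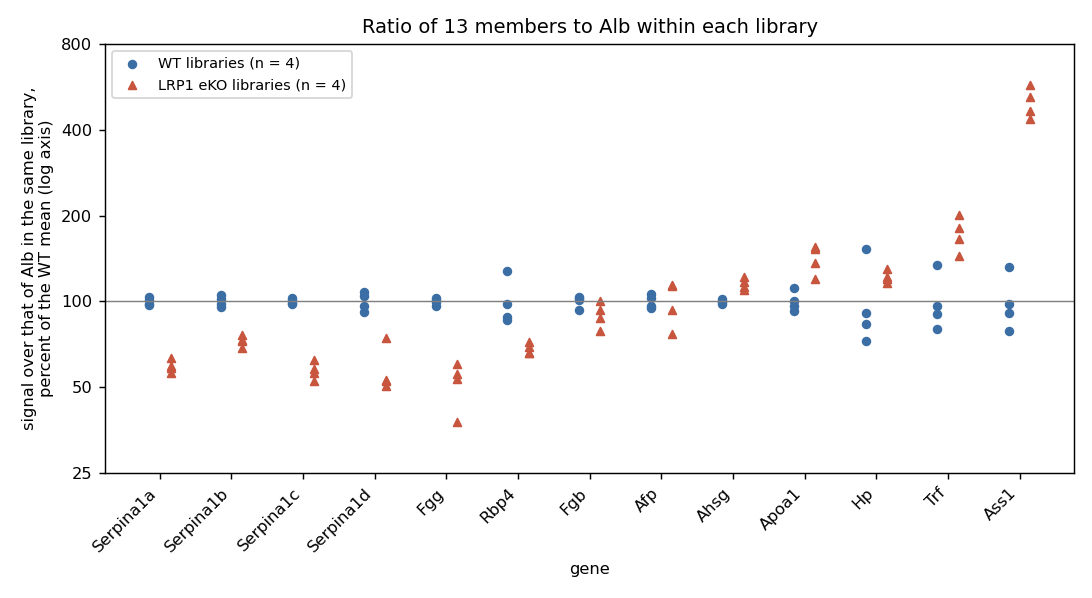
Ratio of the signal of 13 genes to that of Alb in the same library, as a percent of the WT mean of that ratio, on a log axis with 1 point per library. The Serpina1 copies, Fgg and Rbp4 lie below all WT libraries in the LRP1 eKO group, Ahsg, Apoa1, Trf and Ass1 lie above them, and Fgb, Afp and Hp overlap.

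WT replicate 4 lay outside the range of the other WT libraries in most genes of the table, and for the hepatocyte genes it was mostly below. Of the 21 genes with a mean of at least 1, it was below WT replicates 1 to 3 in 14, above them in 3 (Ass1, Trf and Hp) and within them in 4. Over 11385 genes of that level it was below in 38.6% and above in 40.6%. Its signal as a share of the mean of WT replicates 1 to 3 was 66.6% for Afp, 68.0% for Ahsg, 71.4% for Fgb and 130.1% for Hp. With WT replicate 4 left out, 18 of the 21 genes were still lower at an adjusted p below 0.05, and 1 was higher. The same library had the lowest macrophage sum and the highest skeletal muscle sum of the WT group.

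A second list of 77 genes of hepatocyte secretion and metabolism, none of them among the 40, was fitted in the same way. Like the 40, it was chosen with earlier results of these data known. In this list 14 genes had a mean signal of at least 1, and 7 were listed at 0 in every library. The LRP1 eKO mean was below the WT mean in 54 genes and above it in 16. Of the 14, the coagulation factor gene F10 did not enter the test. F10 was at 267% of WT and was not called in the fit without the filter (log2 fold change 0.60, limma adjusted p = 0.24). Of the 13 that entered the test over the filtered genes, 10 were lower and 3, the sterol hydroxylase Cyp27a1, the urea cycle enzyme Asl and the bile acid receptor Nr1h4, were not called, where 22.2% of all genes tested were lower. Of the 10, Kng2 and Aass entered through the WT libraries alone, since they had no LRP1 eKO library with a signal of 1 or more. Of the same 10, 2 changed by at least 2-fold as well, Apoc2 and Kng1, where 0.790% of all genes tested did. Of 57 fitted without the filter, 18 were lower, 1, Apoa4, was higher and 38 were not called, where 15.3% of the genes in that fit were lower and 12% were higher. Apoc2, the activator of lipoprotein lipase, had signals of 16.0, 14.6, 12.8 and 10.4 in the WT libraries and 7.41, 1.98, 6.6 and 4.23 in the LRP1 eKO libraries, with a log2 fold change of -1.35 (adjusted p = 0.0048 by limma). Kng1, which encodes the kinin precursor kininogen, had 4.42, 4.31, 4.37 and 3.11 in the WT libraries and 1.46, 1.51, 1.27 and 1.4 in the LRP1 eKO libraries, with a log2 fold change of -1.06 (adjusted p = 2.7e-05 by limma). Apoc2 was lowest in LRP1 eKO replicate 2, as Apoc1 and Arg1 were. Several genes called lower, such as Trf, Hp, Apoa1 and Fgb, were also lowest in that library, while Alb and Afp were not.

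The 3 genes of this second list chosen for their high mean were all lower. Gpc3, a heparan sulfate proteoglycan of fetal liver, had 129, 135, 126 and 123 in the WT libraries and 72.7, 60.6, 75.8 and 66.4 in the LRP1 eKO libraries, and its mean fell from 128 ± 5.15 to 68.9 ± 6.75 (mean ± SD, n = 4 each). Gpc3 had a log2 fold change of -0.89 (adjusted p = 1.0e-05 by limma). Serpina3n, an acute phase protease inhibitor also made outside the liver, had 122, 122, 121 and 122 in the WT libraries and 78.4, 45.5, 78.0 and 60.7 in the LRP1 eKO libraries, with a log2 fold change of -0.91 (adjusted p = 0.0011 by limma). Fah, the last enzyme of tyrosine breakdown, had 53.5, 53.0, 50.7 and 54.5 in the WT libraries and 44.0, 44.3, 43.6 and 42.5 in the LRP1 eKO libraries, with a log2 fold change of -0.27 (adjusted p = 6.2e-04 by limma). The groups did not overlap in any of these, and Fah fell by far less than 2-fold.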

How the data were processed

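The mRNA of 4 WT and 4 LRP1 eKO samples was extracted with an RNeasy kit, prepared with an Illumina TruSeq kit and sequenced. The authors deposited 1 table that gives a quantile-normalized signal for each of 22520 protein-coding genes, and all of its library columns were used, each matched to a sample by its description. The submitters' processing notes name TopHat2, Cufflinks and mm10, and the methods of the study name trimGalore, STAR, featureCounts, a GENCODE gene model and edgeR. The unit of the signal before normalization is not stated. Quantile normalization removes any shift common to all genes. Depth is unknown, so no interval for counting error could be given, and precision rests on the spread of 4 libraries per group.

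From the deposited signal, log2(signal + 1) was fitted on genotype alone by limma (3.58.1, under R 4.3.3), with its variance trend, over the 11391 genes whose signal reached 1 in 4 or more of the 8 libraries. Benjamini-Hochberg adjustment ran over all of them. Members below this filter were fitted without it, over 17959 genes. The thresholds were an adjusted p of 0.05 and, where named, a 2-fold change. An exact two-sided permutation test of 4 libraries against 4 cannot give a p below 0.0286. The calculation was tested on simulated data.

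The members, the second hepatocyte list and the marker lists were chosen with earlier results of these data known. Every member was accounted for. Values per library were given for members with an adjusted p below 0.05, the 6 with the highest mean, Serpina1a to Serpina1d, Hnf4a and Afp, and for Apob, Apoc1, Apoh and Arg1. Of the second list, the 3 genes with the highest mean, those past both thresholds and F10 were described.

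Gene positions and transcripts came from GENCODE M21 on GRCm38, which is mm10, and promoters from RefSeq on GRCm38.p6. A second promoter motif was searched and is not reported here, for a reason unrelated to its counts. Plots used matplotlib 3.10.9 under Python 3.11.15. Results were recomputed with pseudocounts of 0.1 and 5, without the filter, with a mean signal of at least 5, without the trend, with array weights, robust moderation, centring on a mean trimmed by 30% at each end, a ratio of arithmetic means, the replicate number as a block, and leaving out each library.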

Additional observations from a re-analysis of the deposited data

Results flagged for a closer look

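In 9 of 80 groups of 4 libraries, 1 library lay far from the other 3 by Dixon's ratio. This ratio is the gap to the nearest library over the range of the group. For normally distributed values chance gives about 1 in 20, or 4. That rate does not hold for the flagged groups of Apoc3, Fabp1 and Hpd, where a single library above 0 fixes the ratio at 1. The LRP1 eKO group of Hpd, at 0 throughout, could not be flagged. WT replicate 4 was the highest of its group for Trf (ratio 0.873, signal 1451) and for Hp (ratio 0.844, signal 43.0). WT replicate 2 was the highest for Hnf4a (ratio 0.867, signal 0.886) and for Hpd (ratio 1, signal 0.0256, the only WT library above 0). WT replicate 1 was the lowest for Apoh (ratio 0.849, signal 0.499). LRP1 eKO replicate 1 was the highest for Fga (ratio 0.879, signal 2.41), and LRP1 eKO replicate 3 was the lowest for Afp (ratio 0.858, signal 2.71) and the highest for Fabp1 (ratio 1, signal 0.0674). LRP1 eKO replicate 2 was the highest for Apoc3 (ratio 1, signal 0.0948). With each library left out in turn, Trf, Hp, Fga and Afp kept their calls as lower.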

How the results depend on the processing

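Leaving out each library in turn gave 18 to 18 genes of the list lower at an adjusted p below 0.05, 16 to 17 of them also by 2-fold, 1 to 2 genes higher, 0 to 1 of these also by 2-fold, a median log2 fold change between -1.42 and -1.33, and 9 to 10 genes of the second list lower. The second gene higher was Arg1, without LRP1 eKO replicate 2 (log2 fold change 2.05, limma adjusted p = 1.8e-04). Array weights, and leaving out both WT replicate 4 and LRP1 eKO replicate 2, an alternative chosen after seeing the data, also gave 2 genes higher and 1 of them past 2-fold, with a log2 fold change of Arg1 of 1.55 (limma adjusted p = 0.032) and 1.89 (limma adjusted p = 1.3e-04). Without the filter, 30 genes of the list were lower, with a median log2 fold change of -0.64, and in the second list 28 were lower and 1 was higher. With a mean signal of at least 5, where fewer genes are tested, 10 were lower, 9 of them by 2-fold, and 5 of the second list were lower. A pseudocount of 5, which shrinks the changes of low signals, left 7 past 2-fold.

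With the replicate number as a block, 18 genes were lower and 1 was higher, as without it, and Hnf4a (limma adjusted p = 0.059), Serpina3k (0.054) and Vtn (0.063) lost their calls. Libraries with the same number did not deviate together, with correlations of -0.086, -0.13, 0.18 and 0.038, so the numbers were not taken as pairs, and each number had a higher correlation with another number. For single genes, 658 of 691 tests under the alternatives kept the direction and the side of the threshold, 26 lost the call, all in Hnf4a, Serpina3k, Tat or Vtn, 7 gained one, and none was reversed. The cause of these changes was not tested. Depth is unknown, so the calls of genes with a mean signal below 1 have no counting error beside them.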
